A study of Drosophila melanogaster with 6 samples.

Results

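The peaks of Klumpfuss (Klu) at the genes for Cyclin E (CycE) and Cyclin B (CycB) are described here. Klu is a zinc-finger transcription factor of the WT1 kind. A peak was taken when its gene entry in the deposited tables was CycE or CycB. The coherent set of peaks held 2 such peaks among 1122, both at CycE. The semicoherent set held 3 among 1250, the same pair at CycE and 1 at CycB, so that 3 distinct peaks were found. They are called the CycB peak, the CycE 3' end peak and the CycE intron peak.

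Binding was measured by targeted DamID, in which a DNA adenine methylase (Dam) fused to Klu marks GATC sites near the places the protein occupies, and the marked fragments are amplified and sequenced. The series had 6 libraries from Drosophila melanogaster midgut. In the 3 Klu-Dam libraries (genotype esgts, UAS-Flp, UAS-Klu Dam) the fusion was switched on in Esg-positive stem-progenitor cells. In the 3 Dam-only libraries (esgts, UAS-Flp, UAS-Dam control) the methylase was switched on by itself. All flies were reared at 18 °C and, per the study's methods, shifted to a higher temperature for the 24 h of induction. All carried the esgts driver and UAS-Flp, and no fly age was taken from the labels. Each library came from 30 to 40 pooled whole midguts, with a different isolation date for each replicate set. The klu-Dam transgene was a full-length cDNA at 1 insertion site on the second chromosome. The fusion was supplied in addition to the fly's own Klu, and its reads reflect methylation by the tagged protein in a mixture of cells. These were the cells in which Flp, made under the esg driver, had removed a STOP cassette from the transgene. The assay reads DNA, so no cell type marker could be checked.

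Cyclins are the regulatory subunits of cyclin-dependent kinases, and their rise and fall orders the cell cycle. CycE with Cdk2 drives entry into S phase, both in dividing cells and in the endocycle, in which cells copy their DNA without dividing. CycB with Cdk1 drives entry into mitosis and is kept low in endocycling cells. In the fly midgut, intestinal stem cells divide, while their enteroblast daughters become polyploid as they mature into absorptive enterocytes.

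Reads over each peak were counted in the 3 Klu-Dam libraries. Peaks of the coherent set held 19521921, 18287201 and 18347327 reads in replicates 1, 2 and 3, and those of the semicoherent set held 20981775, 19648769 and 20012044. The median semicoherent peak had 2400.5, 2690.5 and 2711 reads. Counts are given as deposited, per kb of peak, or as CPM, counts scaled to the total over the peaks of the same set (counts per 1000000). No Dam-only count was used here. Klu-Dam was therefore not tested against Dam-only at any peak, and the part of each count that free methylase or open chromatin would give cannot be told apart from that of Klu. A 95% exact binomial (Clopper-Pearson) interval follows each share, and covers counting error only, since amplified reads are not independent molecules.

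The CycE gene (FBgn0010382) runs along the minus strand of chromosome arm 2L at 15727581 to 15748150 (dm6 coordinates, counted from 1), over 20570 bp. It has 6 annotated transcripts from 3 start sites. Both CycE peaks lay wholly inside the gene and together covered 25.2% of its length. They were 11830 bp apart. The stretch between them held introns, the start site of CycE-RB and the start codons of every transcript but CycE-RF. Neither peak contained a transcription start site, whereas 38.1% of coherent peaks did.

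The CycE 3' end peak (2L, 15727625 to 15730654) was 3030 bp wide, wider than 90.3% of coherent peaks. Coding sequence made up 1591 bp of it (52.5%), 3' UTR 1256 bp (41.5%) and intron 183 bp (6.04%). It touched the last 3 exons of all 6 transcripts and included the stop codon, as did 37.7% of coherent peaks. For 5 transcripts it held 74.4 to 74.7% of the coding bases, and for the shorter CycE-RB it held 87.9%. The start site of CycE-RB, which lies nearest, was 1130 bp upstream of the peak, and the start sites of the other transcripts were 15956 or 17496 bp upstream.

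The CycE intron peak (2L, 15742485 to 15744632) was 2148 bp wide and wholly intronic, as were 9.71% of coherent peaks. It filled 47.8% of a 4492 bp intron, 759 bp from the exon upstream of it and 1585 bp from the exon downstream. In the direction of transcription it began 1978 bp after the start site of CycE-RC, CycE-RD and CycE-RF and 3518 bp after that of CycE-RA and CycE-RE. It lay 12848 bp before that of CycE-RB, measured from its upstream edge, and is therefore inside the transcribed region of 5 transcripts and outside the sixth.

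DamID can place a peak only to the nearest methylation site, so peak edges are GATC sites. The 3 edges of the CycE peaks that lie in coding or intronic sequence are printed to show where these peaks end. Each is given 5' to 3' on the minus strand, the strand on which CycE is transcribed, with the GATC site in capitals, from the RefSeq Release 6 genome. They are the upstream edge of the 3' end peak, in coding sequence at chr2L:15730642-15730667, the downstream edge of the intron peak at chr2L:15742472-15742497, and its upstream edge at chr2L:15744620-15744645.
CycE 3' end peak, upstream edge: caccggccgagGATCtgtcggaggcg
CycE intron peak, downstream edge: atttaaatgatGATCttattaattgt
CycE intron peak, upstream edge: gaacccaaactGATCtcgaatatttt
The flanks of the coding edge are rich in G and C, and those of the downstream intron edge are mostly A and T. Across the whole peaks, GC content was 45.1% at the 3' end and 41.6% in the intron, against a median of 45.4% over coherent peaks.

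**Figure D1:**
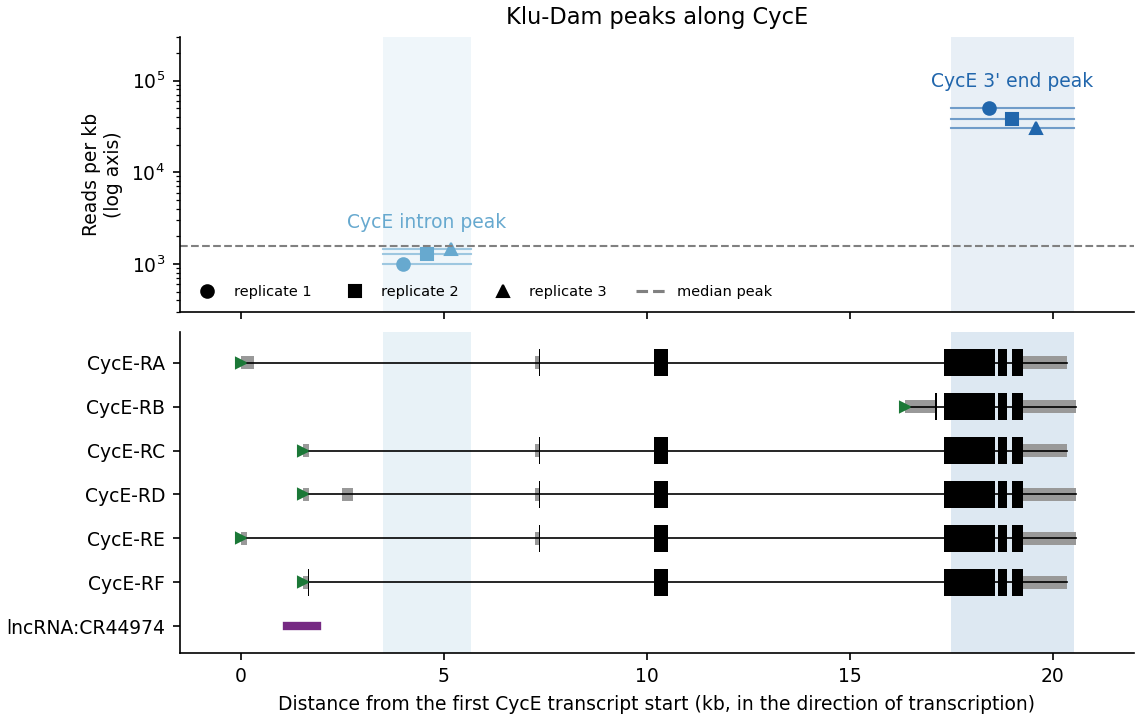
Klu-Dam peaks along CycE. The upper panel gives reads per kb of peak on a log axis for each Klu-Dam replicate, with a dashed line at the median peak, and the lower panel gives the 6 transcripts (black, coding; grey, untranslated; arrowheads, start sites) and lncRNA:CR44974 against distance in kb from the first start site. The 3' end peak lies over the last 3 exons at 30199 to 49838 reads per kb, and the intron peak lies within an intron nearer the first start sites, at 1003 to 1439 reads per kb.

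The CycB gene (FBgn0000405) is on the minus strand of arm 2R at 22803521 to 22806948, over 3428 bp, with 4 transcripts from 3 start sites. The CycB peak (2R, 22804362 to 22806769) was 2408 bp wide, equal to 70.2% of the length of the gene, and wider than 75.8% of semicoherent peaks. It took in 1543 bp of coding sequence (64.1%), 484 bp of 5' UTR (20.1%) and 381 bp of intron (15.8%), and 0 of the 773 bp of 3' UTR. The start sites of CycB-RB and CycB-RC were inside it, and the shared start site of CycB-RA and CycB-RE was 179 bp upstream of its edge. All 4 start codons were inside and 95.5 to 95.7% of the coding bases were covered, while the peak stopped 66 bp short of the stop codon. Among semicoherent peaks, 40.5% held a start site and 37.8% a start codon. The CycB peak thus covered the start sites of CycB-RB and CycB-RC and most of the coding sequence of its gene. The taller CycE peak, in contrast, covered a coding and 3' UTR stretch with no start site.

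**Figure D2:**
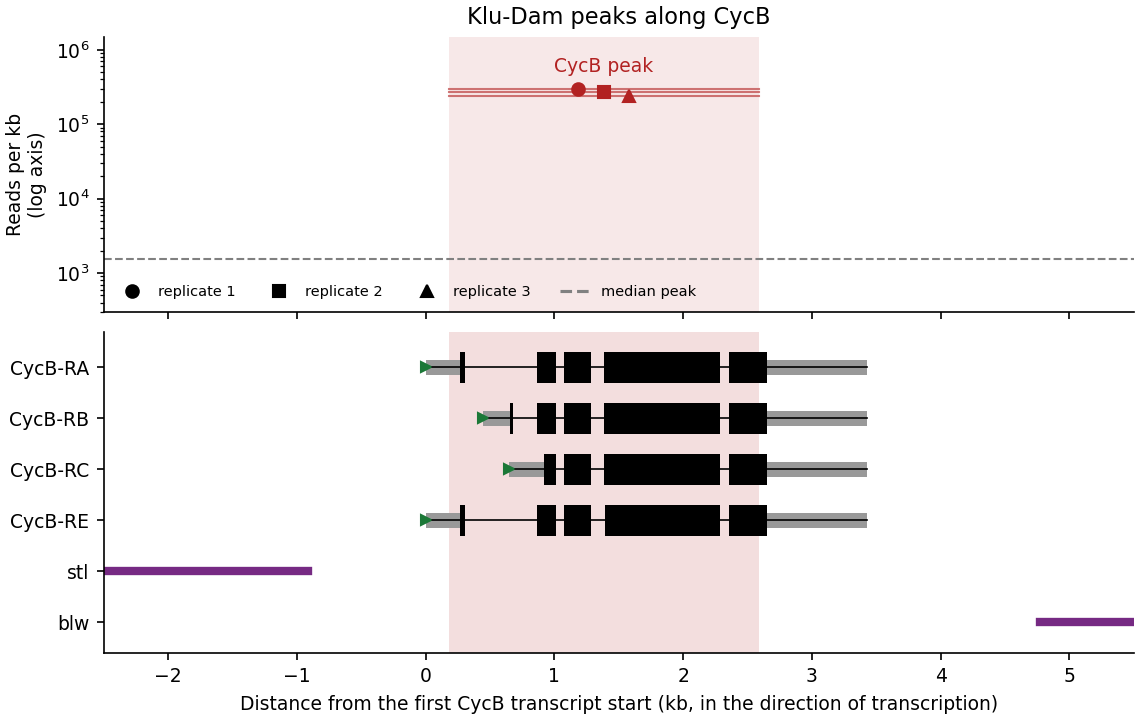
The Klu-Dam peak along CycB. The upper panel gives reads per kb of peak on a log axis for each Klu-Dam replicate, with a dashed line at the median peak, and the lower panel gives the 4 transcripts (black, coding; grey, untranslated; arrowheads, start sites) and the neighbours stl and blw against distance in kb from the first start site. The peak spans the gene from 179 bp after the first start site to just before the stop codon, at 236796 to 300339 reads per kb.

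No other gene shared these peaks. Each had 1 listed gene, as had 55.7% of coherent and 55.9% of semicoherent peaks, and no other reference gene overlapped any of them. At the CycE 3' end peak the next protein-coding gene was stol, which encodes a calcium channel subunit, 9353 bp away. An inserted transposable element of the Quasimodo family came within 55 bp of the edge of this peak. Among coherent peaks, 3.30% had a transposable element within 100 bp, and the median distance was 25486 bp. At the CycE intron peak the neighbour was lncRNA:CR44974, a non-coding gene on the opposite strand near the CycE start sites, 1625 bp away. At the CycB peak, stl, which encodes an extracellular metalloprotease, was 1091 bp away, and blw, which encodes a subunit of mitochondrial ATP synthase, was 2182 bp away. The gene end used in the tables for CycB, 22806303, was that of its shortest transcript and 645 bp short of the reference gene. This left the listing unchanged, since the peak overlapped the gene under either end.

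Every 50-base window of the 3 peaks occurred once in the reference genome (2359 windows at CycB, 2981 at the CycE 3' end and 2099 in the CycE intron). The same held for 1201 of 1250 semicoherent peaks (96.1%). Reads of that length from these loci therefore had 1 place to align.

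At CycB, Klu-Dam replicates 1, 2 and 3 held 723216, 662327 and 570204 reads. Per kb this was 300339, 275053 and 236796 reads, with a mean of 270729 ± 31991 (SD, n = 3). Against the median semicoherent peak of the same library, the level per kb was 204, 179 and 150 times higher. All 3 libraries placed the peak among the top 3 of 1250 peaks, at rank 3, 2 and 1. It had 3.45% (3.44 to 3.45), 3.37% (3.36 to 3.38) and 2.85% (2.84 to 2.86) of all reads in semicoherent peaks.

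At the CycE 3' end, Klu-Dam replicates 1, 2 and 3 held 151008, 114954 and 91502 reads. The level per kb was 49838, 37939 and 30199 reads, with a mean of 39325 ± 9893 (SD, n = 3). It was 28.8, 20.4 and 17.0 times that of the median coherent peak, and the peak took rank 26, 35 and 48 of 1122. The shares of reads in coherent peaks were 0.774% (0.770 to 0.777), 0.629% (0.625 to 0.632) and 0.499% (0.496 to 0.502). This peak was among the 48 tallest of the set in every library, with replicate 1 highest and replicate 3 lowest.

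In the CycE intron, Klu-Dam replicates 1, 2 and 3 held 2155, 2730 and 3092 reads. The level per kb was 1003, 1271 and 1439 reads, with a mean of 1238 ± 220 (SD, n = 3). It stood at 0.579, 0.684 and 0.810 times the median coherent peak, at rank 644, 588 and 551. This was an ordinary peak of the set, below its median per kb in all 3 libraries, and its order of libraries was the reverse of that at the 3' end. Its shares were 0.0110% (0.0106 to 0.0115), 0.0149% (0.0144 to 0.0155) and 0.0169% (0.0163 to 0.0175).

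**Figure D3:**
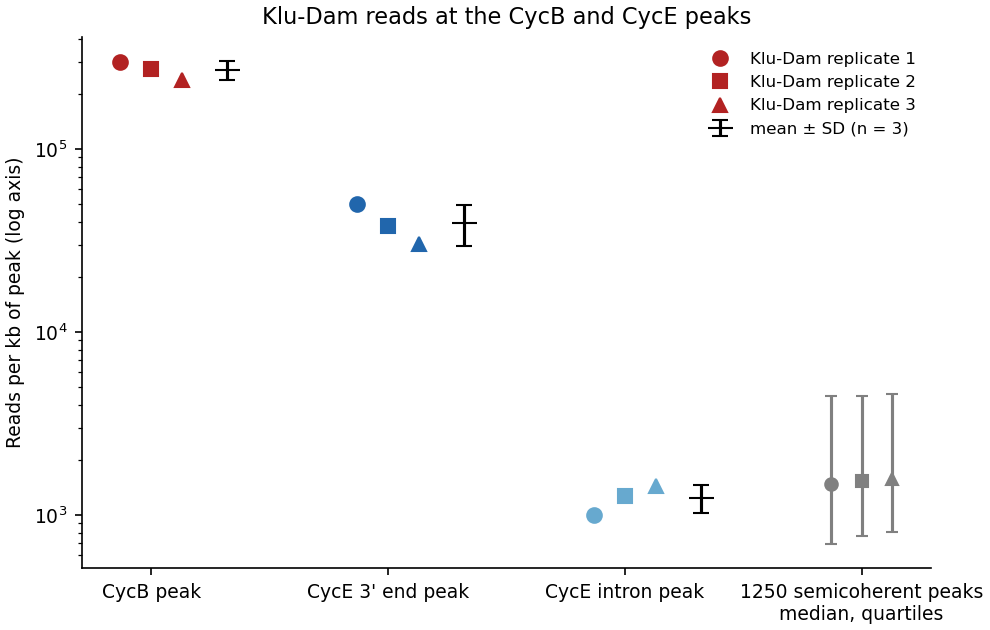
Reads per kb of peak (log axis) at the CycB peak, the CycE 3' end peak and the CycE intron peak in the 3 Klu-Dam replicates, with the mean ± SD (n = 3), beside the median and quartiles of all 1250 semicoherent peaks. CycB lies at 236796 to 300339, the CycE 3' end at 30199 to 49838, and the CycE intron at 1003 to 1439, among the bulk of peaks.

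The 3 peaks did not overlap in level in any library. CycB exceeded the CycE 3' end 6.03-, 7.25- and 7.84-fold per kb in replicates 1, 2 and 3, a mean log2 difference of 2.81 ± 0.20 (SD, n = 3). CycB exceeded the CycE intron 299-, 216- and 165-fold (log2 7.78 ± 0.43). The CycE 3' end exceeded the CycE intron, in the same gene, 49.7-, 29.9- and 20.98-fold (log2 4.98 ± 0.63). Each difference had the same sign in 3 of 3 libraries and was many times the spread between them. With 3 libraries the exact sign-flip permutation test (two-sided) cannot go below p = 0.25, which is what each of the 3 pairs gave, before and after Benjamini-Hochberg adjustment.

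Scaled to CPM, CycB held 34469, 33708 and 28493 in replicates 1, 2 and 3, a mean of 32223 ± 3253 (SD, n = 3) and rank 2 in the semicoherent set. The other 4 of the 5 tallest peaks were at CG2022 (35146 CPM), neo (27391), Atg3 (19005) and CG7927 (18701). All of these had a coherent counterpart, while the CycB peak did not. CycB was the tallest of the 131 semicoherent peaks without one. The median of these 131 was 48.0 CPM, against 148 CPM for the peaks with a counterpart, and the next tallest of them, at CG11423, had 8458 CPM and rank 25. The nearest coherent peak, at CG30272, was 21082 bp away. The coefficient of variation of CPM was 10.1% at CycB, against a median of 29.5% over the 131 peaks, of which 7 had a lower value, and of 16.7% over the peaks with a counterpart. Most of these peaks were far lower than CycB. Over the 50 semicoherent peaks closest to CycB in rank the median was 17.6%, and 8 had a lower value. The rule that separates the sets, and the Dam-only signal under CycB, were not tested.

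**Figure D4:**
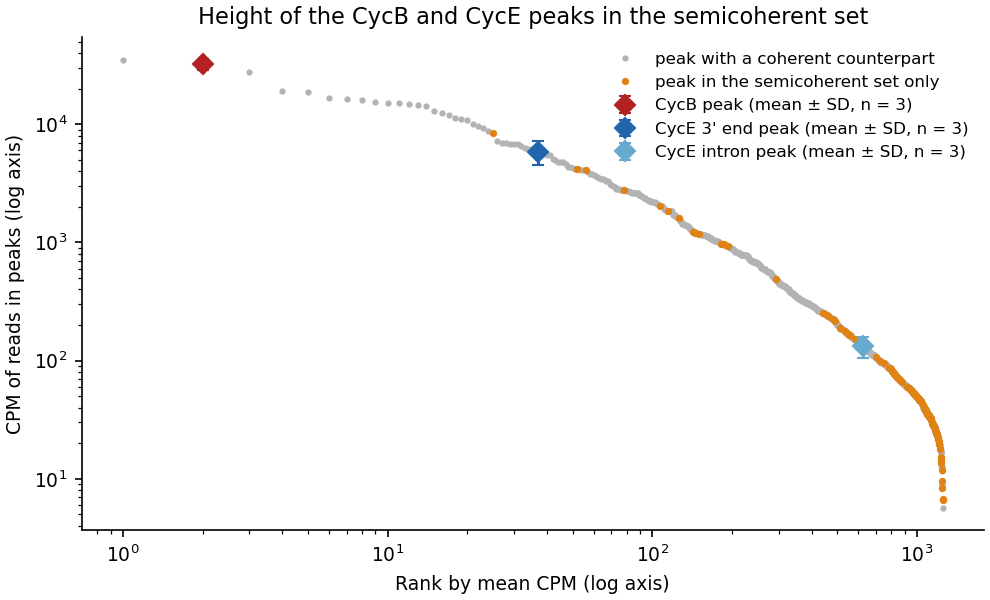
Mean CPM of each of the 1250 semicoherent peaks against its rank (both log axes). Diamonds with bars are the CycB, CycE 3' end and CycE intron peaks (mean ± SD, n = 3), grey points have a coherent counterpart and orange points do not. CycB is at rank 2 with 32223 CPM, far above the other peaks found in the semicoherent set only, most of which are at the low end.

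The CycE 3' end peak had 7735, 6286 and 4987 CPM in replicates 1, 2 and 3 (6336 ± 1375, SD, n = 3, rank 35 of 1122). The CycE intron peak had 110, 149 and 169 CPM (143 ± 29.6, SD, n = 3, rank 589). Relative to replicate 1, the 3' end peak changed by log2 -0.30 in replicate 2 and -0.63 in replicate 3, while the intron peak changed by 0.44 and 0.61. The median coherent peak changed by 0.15 and 0.11. Only 3.03% of coherent peaks had a lower ratio of replicate 2 over 1 than the 3' end peak, and 7.49% a lower ratio of replicate 3 over 1. For the intron peak, 86.3% and 79.7% of peaks had lower ratios. The CycE peaks thus moved in opposite directions between libraries, and the gap between them was widest in replicate 1. CycB changed by -0.03 and -0.27.

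These ratios were set beside those of the 50 peaks closest in rank, which at the top of the set include much lower peaks than CycB. Among them, the median ratio of replicate 3 over 1 was -0.24 around CycB, 0.04 around the CycE 3' end and 0.06 around the CycE intron. At CycB, 23 of the 50 had a lower ratio. The CycE 3' end was below nearly all of its own, as 5 of the 50 had a lower ratio. The CycE intron was above most, as 44 of the 50 had a lower ratio. Each replicate set had its own isolation date, and the part of the date in these ratios cannot be told apart from that of the replicate.

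**Figure D5:**
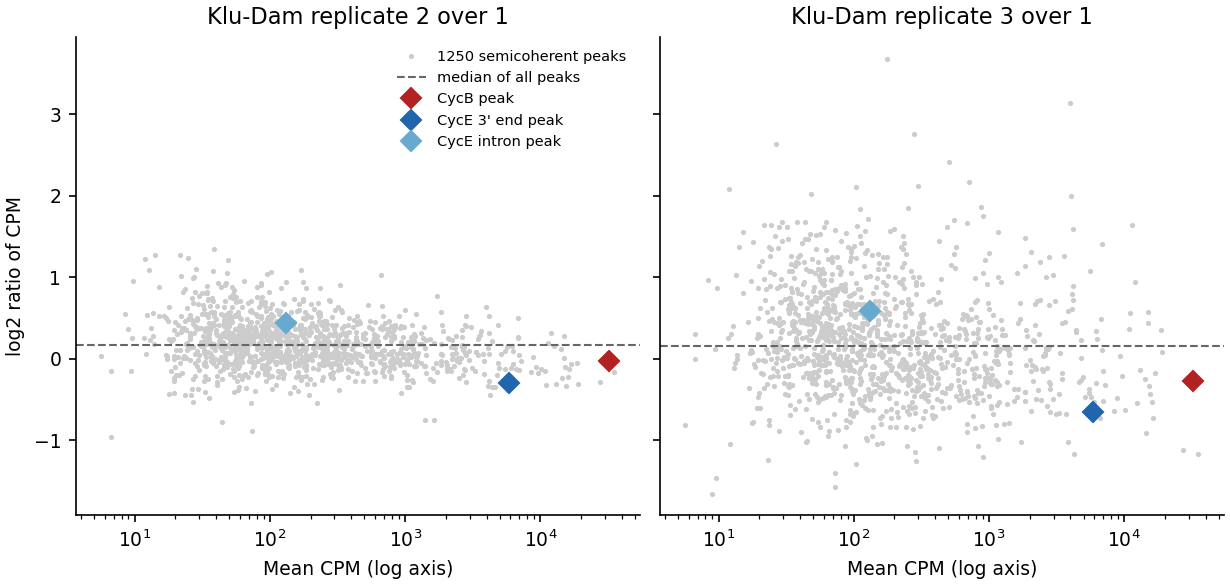
Log2 ratio of CPM between Klu-Dam replicates against mean CPM (log axis) for the 1250 semicoherent peaks, with replicate 2 over 1 on the left and replicate 3 over 1 on the right. The dashed line is the median of all peaks, and diamonds are the CycB, CycE 3' end and CycE intron peaks. The intron peak lies above the line and the 3' end peak below it in both panels, with CycB between them.

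The density of GATC sites sets how finely DamID can sample a locus. The CycB peak had 12 GATC fragments of 9 to 741 bp (median 107), more than 91.5% of semicoherent peaks, whose median was 6. The CycE 3' end peak had 10 of 50 to 1792 bp (median 137.5). Its longest fragment, 2L 15727625 to 15729416, made up 59.1% of the peak and ran from the 3' UTR into the coding exons, so that signal inside that stretch cannot be placed more closely. The CycE intron peak had 5 fragments of 32 to 790 bp (median 457).

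Klu is related to WT1 and Egr proteins, which are known from mammals to bind G-rich sites. The letters GCGTGGGNG and their shorter core GTGGGNG, contained in the longer motif, were searched on both strands. The CycB peak had 2 matches to the core, both in coding exons, at 22804499 to 22804505 on the plus strand and 22804944 to 22804950 on the minus strand, and 0 to the longer motif. The CycE peaks had 0 matches to either. The core was in 65.2% of coherent and 66.96% of semicoherent peaks, and the longer motif in 8.47% and 8.96%. Among coherent peaks within 25% of the width of the CycE 3' end peak, 82.5% of 246 held the core, and among those of like width to the CycE intron peak, 75.1% of 441 did. A match or its absence describes these letters in these windows only. The paper scanned its peaks with published weight matrices for Klu, which were not used here, so a lack of these letters does not show a lack of a Klu site.

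The peaks most like each member in CPM across the 3 libraries were found by Euclidean distance on the log2 scale. They are named by their closest listed gene, and those at Abl, CG7600, CG11723, CG14482 and Atg3 were also listed with other genes. Nearest to the CycE 3' end peak were those at pnut, a septin gene (distance 0.15), TrissinR, a neuropeptide receptor gene (0.15), and Abl, a tyrosine kinase gene (0.25). Each had fewer reads in replicate 3 than in replicate 1, with 96183 and 140008 reads at pnut. That order follows from their choice by this distance and is not a separate result. Nearest to the CycE intron peak were those at CG7600 (0.11), CG11723 (0.11) and CG14482 (0.16). CycB had no near equal. Its closest were CG2022 (0.69), neo (0.81) and Atg3, an autophagy gene (1.402), and CG2022 and neo were further apart between replicates, with 400618 and 331000 reads in replicate 3 against 947808 and 756312 in replicate 1.

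Other genes of the cell cycle machinery were read from a list of 47 that included CycE and CycB. In the coherent set 7 of 47 were listed with a peak, where 9.08% of all 18164 reference genes were. In the semicoherent set 9 of 47 were listed, where 10.1% of all genes were. These counts include CycE and CycB themselves, without which 6 and 7 of 45 were listed. No test of the list was made. Among the 12 cyclin genes in it, 3 had a coherent and 4 a semicoherent listing, against 9.08% and 10.1% of all reference genes. Besides CycE and CycB, which were in the list by choice, the listed cyclins were CycC and CycH, in both sets. CycC, the partner of the Mediator kinase Cdk8, had 67.4 ± 8.12 CPM, and CycH, the partner of Cdk7, had 80.0 ± 9.86 CPM (SD, n = 3 each). The CycC peak overlapped its gene, and the CycH peak was listed 761 bp away. Listed distances were set by the authors and need not be the gap to the nearer peak edge. The nearer edge was used for the neighbours described above. CycA, CycB3 and CycD, which act in mitosis or in G1, had no listing.

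Among regulators, fzr, which activates the anaphase-promoting complex against mitotic cyclins and is needed for endocycles, had a semicoherent peak of 643 ± 141 CPM, listed 1176 bp away. The related activator fzy had a peak of 67.6 ± 10.7 CPM that overlapped the gene. Wee1, a kinase that holds Cdk1 inactive, had a peak of 162 ± 39.9 CPM listed 1193 bp away, and polo, a mitotic kinase with a semicoherent peak only, one of 487 ± 65.7 CPM listed 1446 bp away (SD, n = 3 each). Cul1, a scaffold of the ubiquitin ligase that degrades CycE, had 997, 1131 and 4108 reads in replicates 1, 2 and 3, and its level rested on replicate 3. CycK and Dp were overlapped by a peak in the reference without being listed, as was SkpA in the semicoherent set. The kinase genes Cdk1 and Cdk2, the partners of CycB and CycE, and the inhibitor gene dap had no peak listed. CycB and the CycE 3' end, at ranks 2 and 37 of the semicoherent set, were the tallest peaks with a listed gene of the 47, and the next was fzr at rank 254. CycB and CycE were in the list by choice, so their place at its top is not a separate result. Peaks that overlapped CycK, Dp or SkpA without listing them were not ranked here.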

How the data were processed

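Targeted DamID libraries of Klu-Dam (n = 3) and Dam-only (n = 3) were grouped by the sample labels. Per the study's methods, the authors aligned reads to dm6 with bowtie2 inside damidseq_pipeline, formed log2 ratios of Klu-Dam over Dam-only and called peaks in each replicate. The labels also name HOMER. How the coherent and semicoherent sets were separated, and how reads were counted over peaks, is not given in the sources used here. The deposited tables hold raw whole-number counts of Klu-Dam reads over each peak, and a gene distance set by the authors. Sample columns that could not be assigned numbered 0.

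Entries were reduced to distinct peaks. Deposited edges lie in the middle of GATC sites, after semicoherent starts were moved back by 1 or 2 bp. Counts were divided by the reads in the peaks of the set (CPM) or by width. This total excludes reads outside peaks. Genes and coordinates were read from the reference annotation, in which both FlyBase identifiers were found. A test of Klu-Dam over Dam-only had been planned and was not run, since the counts over peaks covered the Klu-Dam libraries only. Pairs of peaks were compared by an exact sign-flip test over libraries. Nothing beyond the labelled dates shows how independent the replicates are, so p-values concern these libraries only. With n = 3 and differences of like sign, the sign-flip p is 0.25 whatever the spread between libraries.

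Named genes were CycE, CycB, genes listed with or overlapped by their peaks, the nearest gene on each side, listed genes of the cell cycle list, and the closest listed gene of the 3 peaks nearest in log2 CPM. Genes of the list without a listing, CG7927, CG11423, CG30272 and the transposable element were added after their values were seen. Members and lists were chosen with earlier results of these data known. Alternatives covered scaling, width, peak set, single libraries and the distance rule. Scripts were tested on simulated data. Tools were scipy 1.17.1, matplotlib 3.10.9, pandas 2.3.3 and numpy 2.4.6 under Python 3.11.15.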

Additional observations from a re-analysis of the deposited data

How the results depend on the processing

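Of 81 alternatives, 65 were counted as leaving the value the same, 16 moved it and 0 reversed it. For the differences between peaks, the same meant only that the sign was kept. Reversal could be counted only for those differences and for the log2 ratios between replicates. The unpaired permutation reused the same difference, so its count as the same was fixed in advance. The motif shares at like width were counted as moved by rule. Taken per GATC fragment, the log2 difference of CycB over the CycE 3' end was 2.21, against 2.81 per kb. That of CycB over the CycE intron was 6.68, against 7.78, and that of the CycE 3' end over the intron 4.47, against 4.98. With the library totals of the study in place of reads in peaks, mean CPM was 19072 at CycB, 3481 at the CycE 3' end and 78.0 in the CycE intron. The rank of CycB was 3 in replicate 1 alone and 1 in replicate 3 alone, that of the CycE 3' end was 48 in replicate 3 alone, and that of the CycE intron was 700 per kb and 644 in replicate 1 alone. Of the 47 genes of the cell cycle list, 4 (8.51%, against 6.21% of all genes) had a listed distance of 0 to a coherent peak, and 3 (6.38%, against 4.88%) were listed with a coherent peak at or above the median. Within 2 kb of the nearer edge of a peak lay 14 (29.8%, against 14.997%) in the semicoherent set and 10 (21.3%, against 13.5%) in the coherent set. Size factors put the CycB ratios at -0.23 for replicate 2 over 1 and -0.44 for replicate 3 over 1 on the log2 scale. Among peaks of like width to CycB, 76.9% held GTGGGNG.

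Leaving out 1 replicate at a time gave 31101 to 34089 CPM at CycB, 5637 to 7011 at the CycE 3' end and 130 to 159 in the CycE intron. Log2 differences per kb then ran from 2.72 to 2.91 for CycB over the CycE 3' end, 7.56 to 7.99 for CycB over the CycE intron and 4.65 to 5.27 for the CycE 3' end over the intron. The unpaired exact permutation test gave p = 0.1 for each pair, the smallest it allows. Unique windows, the gene body and 2 kb rules on the semicoherent set and the 50 peaks nearest in rank were chosen after seeing the data. The comparisons of peaks were paired by library. No paired analysis was possible because Dam-only counts were not used here, as far as Klu-Dam against Dam-only is concerned, and the block, normalization, filter and leave-out alternatives of that test were not run.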
